A study of Rattus norvegicus with 22 samples.

Results

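The heat shock and endoplasmic reticulum (ER) chaperone genes were 34 of the 17310 genes listed in the count files of the rat nucleus accumbens, the ventral part of the striatum that takes part in reward. They were taken by exact gene symbol, and all 34 were found. The ER list held 22 genes, of which 14 code for folding proteins and 8 for stress sensors, transcription factors and proteins of ER-associated degradation. The heat shock list held 12 genes, most of them cytosolic, with 2 that act in mitochondria. A gene was tested where its mean normalized count over the rats of an experiment lay above the median of all listed genes (43.6 in experiment 1 and 66.4 in experiment 2), which left 8655 genes in each experiment. Of the 34 members, 28 were tested in experiment 1 and 27 in experiment 2.

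All 22 rats were adult male Wistar rats, an outbred strain, and each library was made from polyadenylated RNA of 1 rat. In experiment 1, 5 rats could choose between water and 6% (v/v) EtOH during 8 weeks, and 5 control rats had water only. In experiment 2, all 12 rats could drink 6% EtOH or water for 4 weeks, went through 3 weeks of gavage and then had EtOH and water for another 2 weeks. The water-gavage rats kept access to EtOH throughout, and whether the EtOH-gavage rats could drink it during the gavage weeks was not given in the sources used here. By stomach tube, 6 of them received EtOH (2.5 g per kg of body weight, diluted to 30% v/v, 2 times a day), and the other 6 received water. Experiment 2 thus had no group without EtOH. Rats given EtOH to drink were killed shortly after it was taken away. The libraries of experiment 1 were not strand-specific and those of experiment 2 were, and each experiment was therefore analysed on its own, apart from a joint fit used to compare the 2. Without strand, reads of a gene and of an overlapping gene on the other strand cannot be told apart.

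Chaperones bind proteins that are not yet folded and keep them from clumping. In the ER, misfolded proteins are sensed by Ern1 (IRE1), Eif2ak3 (PERK) and Atf6, which act through the transcription factors Xbp1, Atf4 and Atf6 itself to raise folding enzymes, export for degradation and, when stress lasts, the death-promoting factor Ddit3 (CHOP). In the cytosol, heat shock factor Hsf1 raises the Hsp70 and Hsp90 chaperones and their helpers when proteins unfold. The ER system is known to be heavily used in secretory cells and active in neurons, which make many membrane proteins and peptides.

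The sequences behind these 2 systems are short DNA elements before the start of the target genes. RefSeq promoter windows (assembly GRCr8, 250 bases before to 50 bases after a start, 300 bases in all) were at hand for 26 of the 34 members. The count files use the older build Rnor_6.0, so the coordinates below are those of GRCr8 and were not joined to the counts. The full ER stress response element, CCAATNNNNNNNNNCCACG on either strand, was found in 22 of 33469 windows (0.066%), and 7 of the members were among the genes with it, with 2 copies in Hsp90b1. These are shown because they mark the genes of the ER list that carry the classical element, each in the direction of the motif, with 5 bases on each side and the fixed letters of the motif in capitals:
Hspa5: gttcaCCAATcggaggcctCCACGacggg
Hsp90b1 far copy: caaacCCAATcgaaaggagCCACGcttcg
Hsp90b1 near copy: acccaCCAATcgtgcctcaCCACGcactc
Calr: ctgggCCAATcagggtcgaCCACGcgttg
Canx: cttgtCCAATcatcacgctCCACGaagaa
Creld2: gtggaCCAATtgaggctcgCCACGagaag
Dnajc3: caaagCCAATcagcgccaaCCACGaccca
Xbp1: acaggCCAATcgcagacggCCACGaccct

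The element of Hspa5 lay 43 to 25 bases before the start, and that of Xbp1 65 to 47 bases before it. The copies of Hsp90b1 lay 176 to 158 and 72 to 54 bases before its start. The elements of Calr (232 to 214 bases before the start) and Canx (230 to 212) were the farthest away. For the 2 chaperones on which most of the ER results turn, the 250 bases before the start are given 5′ to 3′ on the gene's strand, with the elements in capitals. Only exact matches to the full element were searched. In Hspa5 (chr3:38452766-38453015, plus strand) the only exact match sits near the start. In Hsp90b1 (chr7:23012294-23012543, minus strand) the second copy reads in the opposite direction to the gene:
Hspa5 promoter: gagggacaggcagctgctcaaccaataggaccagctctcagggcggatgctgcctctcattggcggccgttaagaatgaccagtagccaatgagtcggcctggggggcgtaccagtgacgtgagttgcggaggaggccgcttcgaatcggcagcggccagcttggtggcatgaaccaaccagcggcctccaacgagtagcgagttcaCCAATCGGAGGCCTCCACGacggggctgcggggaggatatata
Hsp90b1 promoter: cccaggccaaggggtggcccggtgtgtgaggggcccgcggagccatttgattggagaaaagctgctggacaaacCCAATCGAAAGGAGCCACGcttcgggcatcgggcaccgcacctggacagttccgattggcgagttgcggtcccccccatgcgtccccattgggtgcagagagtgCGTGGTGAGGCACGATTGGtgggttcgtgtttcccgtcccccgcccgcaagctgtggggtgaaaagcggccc

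The heat shock element was searched on either strand as 3 alternating units (GAA, any 2 bases, TTC, any 2 bases, GAA), which 267 of 33469 windows held (0.798%). It was found in 4 members, which are shown because they are the members with the full element, with 5 bases on each side and the fixed letters in capitals. Hspd1 and Hspe1 lie head to head and their windows overlap, so that the same element is counted for both:
Hspa8 far copy: agcgtGAAagTTCcaGAAcgctg
Hspa8 near copy: tcttaGAAccTTCcaGAAgggtt
Hspe1 and Hspd1: ttctaGAAccTTCcgGAAggccc
Hsph1: gaggaGAActTTCcaGAAtctgc
A match describes letters in a window and was not tested for binding. No window was at hand for Pdia3, Pdia6, Manf, Atf6, Ern1, Hspa1b, Hsp90aa1 and Hsf1.

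Reads assigned to genes numbered 2962291 to 5247386 per rat in experiment 1 and 6713617 to 8765472 in experiment 2, so single genes were counted more precisely in experiment 2. The rats themselves varied more in experiment 2, with a common biological coefficient of variation of 31.3% against 11.1%. Reads that fell outside annotated genes made up 48.4 to 51.1% of the assignable reads in experiment 1 and 46.1 to 58.0% in experiment 2. Striatal marker genes were present in every library (summed Drd1, Drd2, Ppp1r1b, Adora2a, Penk and Tac1 of 7062 to 42495 normalized counts). In experiment 2, 4 rats stood apart. EtOH-gavage replicates 1 and 2 and water-gavage replicates 1 and 5 had the highest shares outside genes, 52.8 to 58.0%, and summed cortical neuron markers (Slc17a7 and Neurod6) of 8.46 to 230.5, against 479 to 3657 in the other 8 rats. The cutoff was a sum of 400, set after the values were seen. The next highest share was 51.7%, and the next lowest sum was 479, in EtOH-gavage replicate 4, which was kept. For experiment 2, counts, list medians, scores, median correlations of pairs, spreads and the fold changes of the main genes are therefore also given without these 4 rats. The difference between the experiments and the remaining values were computed only with them. The cortical sums also varied in experiment 1, from 326 to 2492 with water and from 849 to 2353 with EtOH. In tissue, fewer cells of a type and less RNA per cell cannot be told apart.

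In experiment 1 most of the ER and heat shock genes were slightly higher in the EtOH-drinking rats, but no member passed the test across all genes. With edgeR's quasi-likelihood test and Benjamini-Hochberg adjustment, 0 of 28 members had an FDR under 0.05 (0% of all 8655 genes did), and the lowest FDR of a member was 0.823. At an unadjusted P under 0.05 stood 4 members, Hspa5, Hsp90b1, Pdia6 and Bag3, all 4 higher with EtOH, where 5.58% of all genes had such a P. DESeq2 also called 0 members at FDR under 0.05, as it called 0 of all genes. It put 3 of these 4 (Hsp90b1, Pdia6 and Bag3) at P under 0.05, against 4.51% of all genes. Of the 28 members, 23 had a log2 fold change above 0, against 49.5% of all genes. Between 19 and 24 of them did so when each rat was left out in turn, with the lowest count without water replicate 4. The percentage of all genes above 0 is not given for these fits. Their median log2 fold change of all genes lay between -0.0040 and 0.0015. The members were measured in the same 10 rats and are not independent of each other.

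The sizes were small. The median log2 fold change was 0.08 over the 20 tested ER genes, of which 17 were higher, and 0.05 over the 8 tested heat shock genes, of which 6 were higher. The median of all genes was 0.00. Within the ER list, 11 of the 13 tested folding genes were higher (median 0.07), and 6 of the 7 tested sensors, factors and degradation genes were higher (median 0.10). No member had groups that did not overlap, as 0.843% of all genes had.

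**Figure D1:**
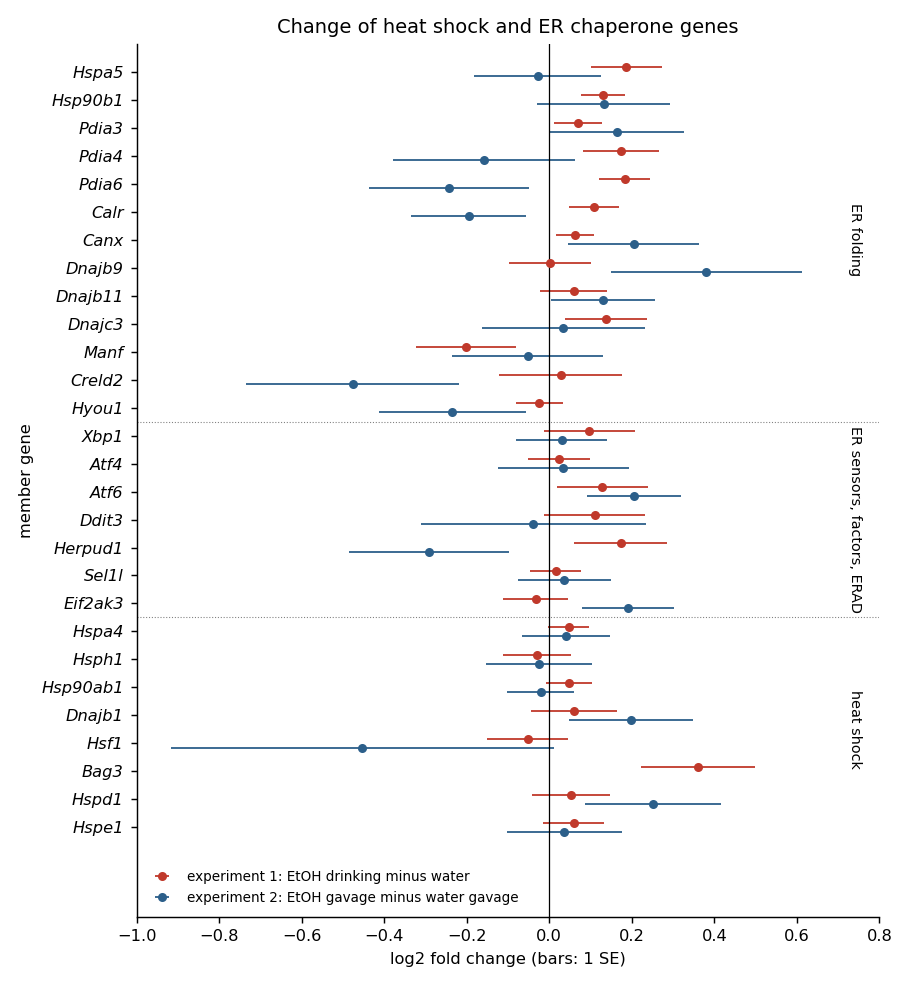
Log2 fold change (EtOH minus control, horizontal axis) of each tested member in experiment 1 (red, EtOH drinking minus water) and experiment 2 (blue, EtOH gavage minus water gavage), with bars of 1 SE; dotted lines part ER folding genes, ER sensors, factors and degradation genes (ERAD), and heat shock genes. In experiment 1 the points of 23 of 28 genes lie right of 0 and the largest is Bag3 at 0.36, while in experiment 2 they spread from -0.48 (Creld2) to 0.38 (Dnajb9) with wider bars.

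Hspa5 codes for BiP, the Hsp70 of the ER lumen that also holds the stress sensors inactive. Its normalized counts were 1618, 1819, 2243, 1765 and 1774 in the 5 water rats and 1839, 2194, 2352, 2140 and 1973 in the 5 EtOH rats. Water replicate 3 lay among the highest EtOH rats, the other 4 controls lay below all EtOH rats. The log2 fold change was 0.19 (SE 0.086), with FDR = 0.866 by edgeR.

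Hsp90b1 codes for Grp94, the Hsp90 of the ER, which folds secreted proteins and integrins. The water rats had 2177, 2172, 2202, 2105 and 2142 normalized counts, a narrow range, and the EtOH rats had 2129, 2479, 2466, 2371 and 2364. All but EtOH replicate 1 lay above the highest control. The log2 fold change was 0.13 (SE 0.053), with FDR = 0.866 by edgeR.

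Pdia6 is a protein disulfide isomerase that forms and reshuffles disulfide bonds. Its normalized counts were 549.8, 540.5, 610.5, 616.9 and 592.0 with water and 665.7, 683.2, 673.6, 615.8 and 665.2 with EtOH. Again 4 of 5 EtOH rats lay above the highest control, and EtOH replicate 4 lay just below it. The log2 fold change was 0.18 (SE 0.061), with FDR = 0.823 by edgeR, the lowest P of the members. Pdia6 had a P under 0.05 in each of the 10 fits that left out 1 rat.

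Bag3 is a co-chaperone of Hsp70 that leads damaged proteins to autophagy and is a known Hsf1 target. The water rats had 50.8, 60.6, 64.9, 55.1 and 54.0 normalized counts and the EtOH rats 70.2, 58.0, 81.5, 81.1 and 77.5. EtOH replicate 2 lay inside the control range and the other 4 above it. Its log2 fold change, 0.36 (SE 0.138), was the largest of the members, with FDR = 0.861 by edgeR.

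**Figure D2:**
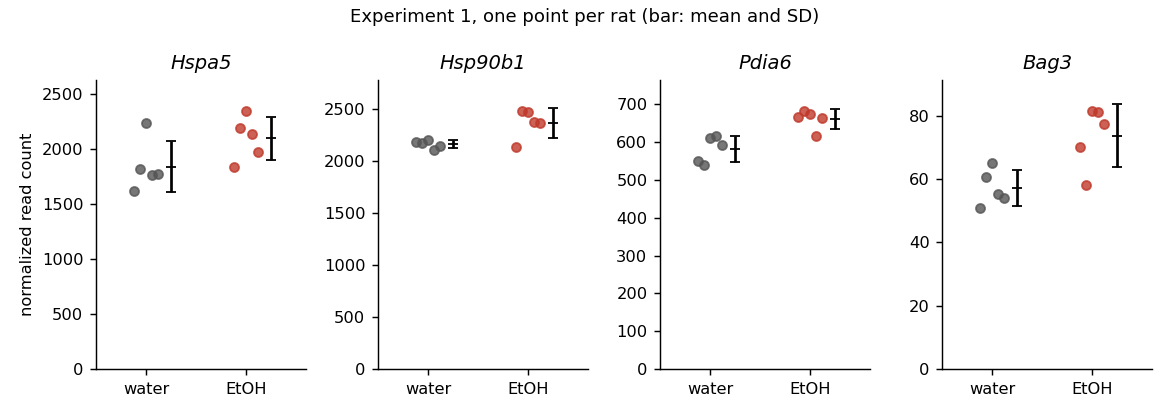
Normalized read counts (vertical axis, starting at 0) of the 4 members with an unadjusted P under 0.05 in experiment 1, 1 point per rat, 5 water rats (grey) and 5 EtOH rats (red), with mean and SD beside each group. In Hsp90b1, Pdia6 and Bag3, 4 of 5 EtOH points lie above every control point, and in every panel the groups overlap.

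The P of 3 of the 4 genes depended on single rats, while Pdia6 kept its own. Without EtOH replicate 3, Pdia6 alone kept a P under 0.05, and without water replicate 4 or EtOH replicate 2 it was Pdia6 and Bag3. When all 4 groups of both experiments were fitted together, so that the wider spread of experiment 2 entered, 0 members had a P under 0.05, against 0.978% of all genes.

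The other ER folding genes lay closer to 0. Of the disulfide isomerases, Pdia4 had a log2 fold change of 0.17 and Pdia3, which works on glycoproteins, 0.07. The lectin chaperones Calr (calreticulin) and Canx (calnexin), which hold glycoproteins until they are folded, had 0.11 and 0.06. Of the J-domain helpers of BiP, Dnajc3 had 0.14, Dnajb11 0.06 and Dnajb9 0.00. Hyou1, an exchange factor of BiP, had -0.02 and Creld2, a stress-induced isomerase-like protein, 0.03. Manf, a secreted ER stress protein, had the lowest value of all members, -0.20 (SE 0.121, FDR = 0.898 by edgeR). Manf is commonly induced together with Hspa5, yet in these rats the 2 had opposite signs.

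Of the sensors and factors, Xbp1 had 285.3, 358.6, 401.2, 338.6 and 437.3 normalized counts in the water rats and 357.6, 376.1, 414.8, 465.9 and 344.2 in the EtOH rats. The groups overlapped over most of their range, and the log2 fold change was 0.10 (SE 0.110, FDR = 0.962 by edgeR). The counts are per gene and do not tell the spliced, active form of Xbp1 from the unspliced one. Ddit3 had 84.7, 100.7, 82.4, 74.8 and 93.2 normalized counts with water and 78.0, 92.0, 91.3, 106.7 and 102.9 with EtOH, again overlapping, with a log2 fold change of 0.11 (SE 0.123, FDR = 0.962 by edgeR). The log2 fold changes were 0.13 for the sensor Atf6, -0.03 for the kinase Eif2ak3 and 0.02 for Atf4, which Eif2ak3 signalling raises. Herpud1 and Sel1l, parts of the machinery that sends ER proteins to degradation, had 0.17 and 0.02.

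Hsf1 itself had 186.3, 202.4, 253.8, 228.4 and 197.6 normalized counts in the water rats and 226.2, 208.1, 202.1, 217.6 and 180.4 in the EtOH rats. The ranges overlapped, with 2 water rats above all EtOH rats and 1 EtOH rat below all water rats, and the log2 fold change was -0.05 (SE 0.098, FDR = 0.983 by edgeR). The Hsp110 exchange factors Hspa4 and Hsph1 had 0.05 and -0.03. The constitutive cytosolic chaperone Hsp90ab1 had 0.05 and the J-domain protein Dnajb1, an Hsf1 target, 0.06. The mitochondrial chaperonin Hspd1 and its lid Hspe1 had 0.05 and 0.06.

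A mean z-score (log2 CPM, library-scaled counts on the log2 scale, of each tested gene, centred and scaled over the rats of an experiment, averaged over a list) showed how evenly the genes moved per rat. For the ER list the scores in experiment 1 were -0.61, -0.26, -0.02, -0.77 and 0.20 in the water rats and 0.03, 0.37, 0.80, 0.20 and 0.06 in the EtOH rats. Water replicate 5 lay above EtOH replicates 1 and 5, and the other 4 controls lay below all EtOH rats. For the heat shock list they were -0.53, -0.61, 0.54, -0.27 and -0.47 with water and 0.63, 0.43, 0.40, 0.15 and -0.27 with EtOH. Water replicate 3 was the second highest of all 10 rats, and EtOH replicate 5 lay among the controls. The highest score differed between the lists, EtOH replicate 3 for ER genes and EtOH replicate 1 for heat shock genes.

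**Figure D3:**
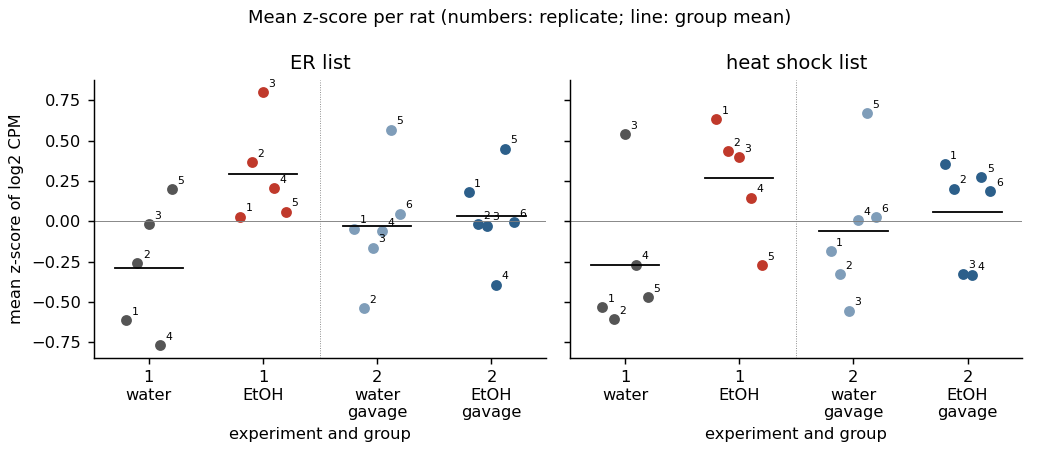
Mean z-score of log2 CPM (vertical axis, in SD units) of the ER genes (left) and the heat shock genes (right), 1 numbered point per rat, by experiment and group (horizontal axis), with a line at each group mean. In experiment 1 the ER scores run from -0.77 to 0.20 with water and from 0.03 to 0.80 with EtOH, while in experiment 2 the groups of each list lie over each other.

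Markers of some cell types moved with the groups in experiment 1, while the sums of others overlapped. Both oligodendrocyte precursor markers were higher with EtOH, and their sum (Pdgfra and Cspg4) ranged from 766 to 881 normalized counts in the water rats and from 887 to 1058 in the EtOH rats, without overlap. The neuroblast sum (Dcx, Dlx1 and Dlx2) ranged from 626 to 850 and from 871 to 1211, with both tested markers higher. All 3 endothelial markers (Cldn5, Pecam1 and Flt1) were higher, with sums of 636 to 764 and 749 to 837, and 0 of 3 neuronal markers were higher. Of the 6 markers of striatal projection neurons, the main neurons of the region, 5 were lower with EtOH and 1, Drd2, had 0.00, with sums of 7838 to 14096 in the water rats and 7062 to 14367 in the EtOH rats. Drd1, the dopamine D1 receptor, had a log2 fold change of -0.50 and an unadjusted P under 0.05 (edgeR), as 5.58% of all genes had. Other markers with such a P were Pdgfra, Dcx, Dlx1, Flt1, Cldn5, the fibroblast marker Col1a1 and the ependymal marker Foxj1, all higher with EtOH. Overlapping sums were also seen for neurons (8202 to 9696 with water and 8345 to 9526 with EtOH) and astrocytes (12282 to 14005 and 12801 to 14207). So it was for oligodendrocytes (26912 to 38948 and 20593 to 40759), microglia (906 to 1065 and 917 to 1019) and cortical neurons (326 to 2492 and 849 to 2353). None of these markers is at 0, and none had an FDR under 0.05 (lowest 0.536 by edgeR). EtOH replicate 3, which had the highest ER score, also had the highest neuroblast sum. This rat was extreme in other classes too. It had the highest endothelial sum (837) and the lowest striatal (7062) and oligodendrocyte (20593) sums of the experiment. The part of these cells in the ER and heat shock values was not tested.

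In experiment 2, where EtOH gavage was added to drinking, the ER and heat shock genes lay on both sides of 0, and the groups overlapped in every tested member. With edgeR, 0 of 27 members had an FDR under 0.05 (0% of all genes did, lowest member FDR 0.675), and 0 had a P under 0.05, where 1.33% of all genes did. DESeq2 also gave 0 and 0 members, where 0 and 2.23% of its 14110 genes passed the same cutoffs. A log2 fold change above 0 was seen in 15 of 27 members, against 50.1% of all genes, and 0 members had groups without overlap, against 0.0116%. The median log2 fold change was 0.03 over 20 ER genes, -0.03 over their 13 folding genes and 0.04 over 7 heat shock genes. The mean z-score of the ER genes ran from -0.54 through a median of -0.05 to 0.57 with water gavage and from -0.39 through -0.01 to 0.45 with EtOH gavage. That of the heat shock genes ran from -0.55 through -0.09 to 0.67 and from -0.33 through 0.19 to 0.36, and the groups overlapped in both lists. Scored over the 8 rats that did not stand apart, the ER genes ran from -0.56 to 0.23 with water gavage and from -0.45 to 0.84 with EtOH gavage, and the heat shock genes from -0.41 to 0.21 and from -0.41 to 0.53, again overlapping.

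Hspa5 ran from 3617 through a median of 4313 to 6614 normalized counts in the 6 water-gavage rats and from 3620 through 4333 to 5794 in the 6 EtOH-gavage rats. The ranges and medians were nearly equal, with a log2 fold change of -0.03 (SE 0.154, FDR = 0.932 by edgeR). Hsp90b1 ran from 5347 through 6061 to 8672 with water gavage and from 5379 through 6657 to 9767 with EtOH gavage, a log2 fold change of 0.13 (SE 0.160, FDR = 0.702 by edgeR). Its size equalled that of experiment 1, with an SE of 0.160 in place of 0.053. Pdia6 ran from 723 through 1101 to 1323 and from 581 through 911 to 1204, so that it was lower with EtOH gavage where it had been higher with EtOH drinking. Its log2 fold change was -0.24 (SE 0.195, FDR = 0.675 by edgeR).

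Xbp1 ran from 1111 through 1233 to 1632 and from 1116 through 1328 to 1382 normalized counts, a log2 fold change of 0.03 (SE 0.110, FDR = 0.893 by edgeR). Ddit3 ran from 64.5 through 120 to 163 and from 60.5 through 124 to 149, a log2 fold change of -0.04 (SE 0.273, FDR = 0.948 by edgeR). The groups overlapped in each of these genes, and the highest Xbp1 value, in 1 water-gavage rat, lay above all others. Hsf1 ran from 74.9 through 237 to 337 with water gavage and from 39.6 through 183 to 316 with EtOH gavage. That range within each group was far wider than its log2 fold change of -0.45 (SE 0.464, FDR = 0.680 by edgeR).

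Bag3 lay under the expression filter of experiment 2 and was not tested there, with 33.7 to 85.0 normalized counts in water-gavage rats and 26.0 to 73.7 in EtOH-gavage rats. The ER folding genes had log2 fold changes of 0.38 (Dnajb9), 0.21 (Canx), 0.16 (Pdia3), 0.13 (Dnajb11), 0.03 (Dnajc3), -0.05 (Manf), -0.16 (Pdia4), -0.20 (Calr), -0.23 (Hyou1) and -0.48 (Creld2). The sensors, factors and degradation genes had 0.21 (Atf6), 0.19 (Eif2ak3), 0.04 (Sel1l), 0.03 (Atf4) and -0.29 (Herpud1). The heat shock genes had 0.25 (Hspd1), 0.20 (Dnajb1), 0.04 (Hspa4), 0.04 (Hspe1), -0.02 (Hsph1) and -0.02 (Hsp90ab1). The lectin chaperone pair Calr and Canx lay on opposite sides of 0, as did the degradation genes Sel1l and Herpud1.

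The difference between the experiments was tested as an interaction in 8176 genes that passed the filter in both. Of the 27 members, 0 had an interaction FDR under 0.05 (edgeR, lowest 0.813), and 0 had a P under 0.05, as 1.88% of all genes did. In 14 members the log2 fold change was above 0 in both experiments, in 4 it was below 0 in both, and in 9 the signs differed. That fit carries the wider spread of experiment 2 into experiment 1. Taken from the separate fits, the difference (experiment 2 minus experiment 1) over its own error was -2.08 for Pdia6 and -2.08 for Herpud1, the 2 members beyond 2 by this measure, which is given as a value and not as a test. The share of all genes beyond 2 is not given, so this count has no background beside it. No member passed the test of a difference between the experiments.

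In experiment 2 several members followed the share of reads outside genes, a property of each library, as much of the transcriptome did. Hsf1 stood at 39.6, 60.6, 74.9 and 159 normalized counts in the 4 rats with the highest shares (58.0, 56.4, 54.5 and 52.8%), which were also its 4 lowest values. Canx, at 16122, 13177, 12520 and 11106, had its 4 highest values in the same rats. Dnajb9, the ER J-domain protein also called ERdj4, had its 4 highest there too, 1113, 988, 817 and 710 against 396 to 647 in the others. These 4 rats, 2 from each group, are the ones that stood apart by their cortical markers.

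Pearson's r with this share was taken across the 12 rats, with log2 CPM and the share both centred on their group means. It was 0.97 for Dnajb9, 0.93 for Canx, 0.86 for Pdia3, 0.85 for Hspd1 and 0.81 for Sel1l. It was -0.94 for Hsf1, -0.91 for Pdia6, -0.90 for Ddit3, -0.83 for Herpud1, -0.81 for Calr and -0.81 for Hyou1. So 5 members had an r above 0.8 and 6 one below -0.8, where 22.3% and 25.1% of all genes did, so that this was not particular to the members. The points share their libraries, the 4 rats pull them, and no p is given. In experiment 1, where the share varied little, 0 and 1 of 28 members did so, against 1.16% and 1.09% of all genes.

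**Figure D4:**
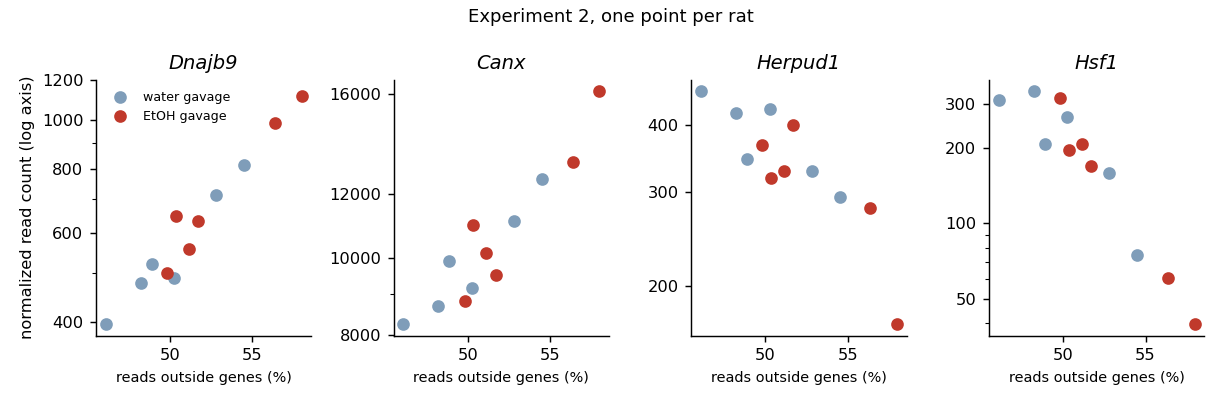
Normalized read count (vertical axis, log scale) of Dnajb9, Canx, Herpud1 and Hsf1 against the share of reads outside annotated genes (horizontal axis, %) in the 12 rats of experiment 2, water gavage in blue and EtOH gavage in red. Dnajb9 and Canx are highest, and Hsf1 lowest, in the 4 rats with shares of 52.8 to 58.0%, which come from both groups.

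With the share as a covariate in the fit, 11 of 27 members changed sign, and 10 in place of 15 lay above 0. The median log2 fold change of all genes was -0.01 in that fit. Hsf1 went from -0.45 to 0.16 and Pdia6 from -0.24 to 0.02. Without the 4 rats, 20 of 27 members lay above 0, 15 of them among the 20 ER genes, and the median log2 fold change was 0.09 for ER and 0.06 for heat shock genes. The median of all genes was 0.02 in that fit. Of the main genes, Hsp90b1 then had 0.14, Xbp1 0.15, Hspa5 0.04, Ddit3 0.02, Pdia6 -0.17 and Hsf1 -0.31, each with an FDR of 0.503 or more (edgeR). Dnajb9 was then the 1 member with a P under 0.05, as 10.9% of all genes had, and no member had an FDR under 0.05 (lowest 0.451, edgeR). For the fits with the covariate and without the 4 rats, the percentage of all genes above 0 is not given. The counts of members above 0 there thus have no background beside them. What part the share outside genes and the cortical tissue had in the group differences was not tested further.

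Water-gavage replicate 5 had the highest value of the 12 rats in 6 of 27 members, against 7.49% of all genes, namely Hspa5, Pdia4, Manf, Creld2, Xbp1 and Hsph1. Its Hspa5 count was 6614, against at most 5794 elsewhere, its Creld2 count 192.4 against at most 124.9, and its Manf count 152 against at most 133. EtOH-gavage replicate 1, the rat with the highest share outside genes, had the highest value in 10 members, among them Hsp90b1, Pdia3, Canx, Dnajb9, Dnajb11 and Dnajc3, and the lowest in 7, against 31.0% and 33.2% of all genes. These 2 rats were also the 2 highest in Hspa5, Hsp90b1, Pdia3 and Dnajc3. Water-gavage replicate 2, which had the lowest share outside genes, had the lowest value in 10 members and the highest in Ddit3 and Herpud1, against 14.8% and 21.5% of all genes.

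**Figure D5:**
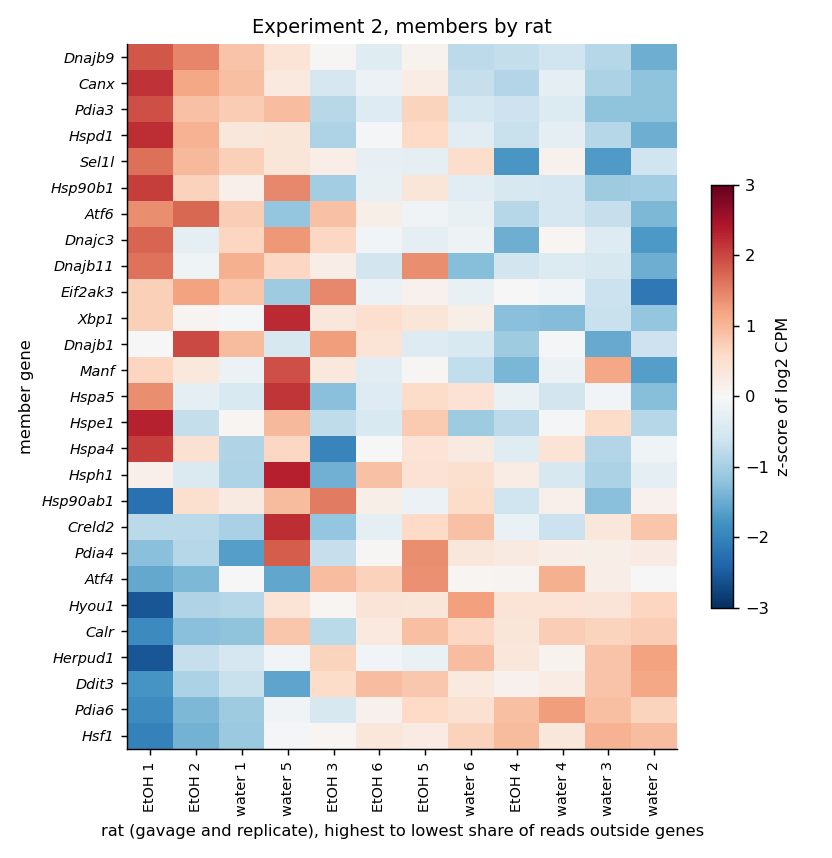
Z-score of log2 CPM (colour, in SD units, over the 12 rats of experiment 2) of each tested member (vertical axis) in each rat (horizontal axis, from the highest to the lowest share of reads outside genes). Dnajb9 and Canx are highest and Hsf1 is lowest in EtOH-gavage replicate 1, while Hspa5, Manf, Creld2 and Xbp1 are highest in water-gavage replicate 5.

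Whether the members went up and down together across rats was looked at within groups, with log2 CPM centred on the group means. Over the 78 pairs of ER folding genes the median r was 0.35 in experiment 2, where 43.6% of pairs had an r above 0.5, against 28.1% of the pairs of all genes. Folding genes also ran against each other there. Single pairs reached from 0.96 (Canx with Dnajb9) down to -0.87 (Canx with Hyou1) and -0.89 (Pdia6 with Dnajb9). The shares of pairs below -0.5 are not given. Over the 21 pairs of sensors, factors and degradation genes the median r was -0.31 (28.6% above 0.5), and over all 190 ER pairs 0.13 (34.7%). Without the 4 rats that stood apart, the medians were 0.38 for folding genes (41.0% above 0.5), 0.24 for sensors, factors and degradation genes (23.8%) and 0.22 for all ER pairs (27.9%), against 18.0% of the pairs of all genes. In experiment 1 the median of the folding genes was 0.07, with 19.2% of pairs above 0.5 against 9.83%. Over pairs of heat shock genes the median r was 0.04 in experiment 2, -0.11 there without the 4 rats, and 0.16 in experiment 1.

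The ER chaperones Hspa5 and Hsp90b1 were correlated over rats by Pearson's r, while the adjusted p of Spearman's rho missed 0.05. In experiment 1 Pearson's r was 0.63 and Spearman's rho 0.72 over 10 rats (two-sided permutation p = 0.0166 and 0.0413, adjusted over 4 tests to 0.0332 and 0.0885). In experiment 2 they were 0.845 and 0.62 over 12 rats (permutation p = 0.00218 and 0.0442, adjusted to 0.00872 and 0.0885). Leaving out the 2 rats farthest from the median of Hspa5 gave an r of 0.68 (permutation p = 0.129) and 0.525 (permutation p = 0.147), so that neither passed the test with fewer rats and a narrower range of Hspa5, while r stayed above 0.5 in both. Within groups and over rats, Hspa5 and Manf had an r of 0.06 and rho of 0.01 in experiment 1 (permutation p = 0.864 and 1.0) and of 0.62 and 0.52 in experiment 2 (permutation p = 0.0533 and 0.116, adjusted 0.0711 and 0.154). Without the 2 farthest rats these were -0.34 and 0.20.

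The spread between rats of a group set the members apart as well. In experiment 1 Canx had a within-group SD of 0.03 on the log2 scale, and 0.0462% of all tested genes had a smaller one. Hspa4 had 0.04, with 0.185% of genes below it. In experiment 2 Hsp90ab1 was steady, with an SD of 0.09 (0.624% of genes below it), also in the 4 rats that stood apart (14807 to 17991 normalized counts, against 15729 to 18685 in the others). Hsf1 had an SD of 0.98, and 95.1% of genes had a smaller one. Without the 4 rats the SD of Hsf1 was 0.35, with 82.4% of genes below it, and that of Hsp90ab1 0.08, with 2.62% below it.

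The 6 members under the filter in both experiments had few reads. Hspa8, which codes for the constitutive Hsc70, had 1, 0, 1, 0 and 0 raw reads in the water rats and 0 in all EtOH rats of experiment 1, and 0 to 4 in the rats of experiment 2. Hsp90aa1, the inducible cytosolic Hsp90, had 0 reads in all rats of experiment 1 but EtOH replicate 2, which had 1, and 0 or 1 in experiment 2. Both genes are well known as abundant in brain and have many near-identical copies in the genome. Reads that aligned to several places numbered 6668708 to 11969355 per library in experiment 1 and 9499338 to 14108123 in experiment 2 and are not part of the gene counts. Their part in the low counts was not tested, and the counts give no level of these genes.

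Hspa1b, the stress-inducible Hsp70, has a near-identical neighbour as well. What part reads aligned to several places had in its low counts was not tested either. Hspa1b had 10, 23, 20, 5 and 25 raw reads in the water rats and 16, 10, 30, 9 and 11 in the EtOH rats of experiment 1. In experiment 2 it had 9 to 31 with water gavage and 4 to 21 with EtOH gavage. The groups overlapped in both. The small heat shock protein Hspb1 had 5 to 40 and 10 to 32 reads in experiment 1 and 0 to 12 and 0 to 10 in experiment 2. Sdf2l1, a partner of BiP, had 16 to 52 and 14 to 43 reads, then 31 to 63 and 9 to 46, and the sensor Ern1 had 18 to 62 and 22 to 45, then 34 to 89 and 52 to 82.

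Other genes of the 2 systems lay on both sides of 0. Of 42 further ER genes (among them P4hb, Sec61b, Edem1, Vcp, Atf3 and Trib3), 40 were in the files and 32 were tested in experiment 1, with 15 higher, 17 lower and a median log2 fold change of -0.01. The 1 with a P under 0.05 was Wfs1, a calcium-regulating membrane protein of the ER, which ran from 1198 through 1360 to 2045 normalized counts with water and from 1062 through 1168 to 1366 with EtOH (log2 fold change -0.32, SE 0.123, FDR = 0.861, edgeR). In experiment 2, 30 were tested, with 13 higher, 17 lower and 0 at P under 0.05. Of 42 further heat shock genes and co-chaperones (among them Hspa9, Stip1, Dnaja1 and the Cct ring subunits), 41 were tested, with 24 higher and 17 lower in experiment 1, 23 higher and 18 lower in experiment 2, and 0 at P under 0.05 in each. The difference between these lists and the members was not tested.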

How the data were processed

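The authors deposited a table of raw read counts per gene for each rat. Per the submitters' processing notes the tools were bcl2fastq 1.8, CASAVA, TopHat2 2.0.13, HTSeq 0.5.3p3 and 0.6.0 and DESeq2 1.6.2, with the build Rnor_6.0. Summary lines (reads outside genes, ambiguous, several alignments) were kept out of library sizes, and reads outside genes are given as a share of reads in and outside genes. Counts were tested per experiment with edgeR 4.0.16 (R 4.3.3; TMM, estimateDisp, glmQLFit, glmQLFTest) on genes above the median base mean (scaled by DESeq2 size factors), as the study filtered, with Benjamini-Hochberg adjustment over all tested genes. Normalized counts are counts divided by TMM-scaled library sizes relative to their mean. Log2 CPM used a prior count of 2. Replicates are separate rats, and the closest 2 libraries within a group differed by a chi-square of 2.99 per degree of freedom, so replicates were counted singly. The scripts were tested on simulated data. Alternatives were DESeq2 1.42.0, its size factors, other filters, a replicate block, a covariate and leaving out rats.

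Every member is named. Full values were given for Hspa5, Hsp90b1, Xbp1, Ddit3, Hspa1b, Hsp90aa1, Hspa8 and Hsf1, for each other member with P under 0.05, and for other genes of the lists with P under 0.05. The other members given per rat in experiment 2, and the leaving out of 4 rats there, were chosen after the values were seen. The members and lists were chosen with earlier results of these data known. Of the planned correlations, Hsp90aa1 with Hsph1 and Hspa1b with Dnajb1 were not run, since Hsp90aa1 and Hspa1b were under the filter, which left 4 tests with 100000 permutations within groups. Some genes of the marker and further lists are not reported here, and the cortical marker sum was computed without them.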

Additional observations from a re-analysis of the deposited data

Results flagged for a closer look

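Among the 118 groups of 5 or 6 values that were scanned (normalized counts of tested members and list scores), 5 held a rat far from the rest of its group by Dixon's gap test. Chance flags about 1 group in 20, which is about the number seen here. Canx was lowest in water replicate 4 of experiment 1, at 3784 against 4031 to 4088 in the other 4 controls, a gap of 0.814 of the range. Pdia6 was lowest in EtOH replicate 4 of experiment 1, at 615.8 against 665.2 to 683.2, a gap of 0.733. Calr was lowest in water-gavage replicate 1, at 2892 against 4006 to 4160, a gap of 0.879, and this rat is 1 of the 4 with few cortical marker reads. Xbp1 was highest in water-gavage replicate 5, at 1632 against 1111 to 1303, a gap of 0.631. Xbp1 was also lowest in EtOH-gavage replicate 4, at 1116 against 1291 to 1382, a gap of 0.660.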

How the results depend on the processing

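No member had an FDR under 0.05 under any setting run. The 4 members at P under 0.05 in experiment 1 became 0 with all 4 groups in one fit, against 0.978% of all genes. The count was 1 to 4 when each rat was left out, against 4.37 to 8.54% of all genes. The 0 members of experiment 2 became 2 with all 4 groups in one fit (Creld2 and Eif2ak3), where 7.18% of all genes had such a P. With each rat left out there were 0 to 4, against 0.347 to 8.97% of all genes. The 4 came without water-gavage replicate 1, namely Dnajb9, Creld2, Atf6 and Eif2ak3, where 8.97% of all genes passed. Without the 4 rats that stood apart, an alternative chosen after seeing the data, there was 1, against 10.9% of all genes. For the tested members with full values only (Hspa5, Hsp90b1, Xbp1, Ddit3, Hsf1, Pdia6 and Bag3), 233 log2 fold changes under alternatives kept their sign and 18 changed it. Of all 27 tested members of experiment 2, 11 changed sign with the share outside genes as a covariate. Without the 4 rats 7 did, and without EtOH-gavage replicate 1 it was 6. In experiment 1, 4 of 28 members did without water replicate 4. With each rat left out, log2 fold changes ran from -0.0952 to 0.023 for Hsf1 in experiment 1 (above 0 without water replicate 3), and in experiment 2 from -0.105 to 0.0989 for Hspa5, from -0.00668 to 0.114 for Xbp1 and from -0.162 to 0.0928 for Ddit3. With the share outside genes as a covariate, values in experiment 2 were -0.0677 for Hsp90b1, -0.0439 for Xbp1, 0.332 for Ddit3, 0.165 for Hsf1 and 0.0179 for Pdia6. Hspa5 in experiment 2 was 0.0048 with DESeq2, 0.0041 without a filter and 0.0397 without the 4 rats, where Ddit3 was 0.0156. The causes were not tested. Without the 2 farthest rats, r of Hspa5 with Hsp90b1 was 0.681 in experiment 1 and 0.525 in experiment 2, and r of Hspa5 with Manf in experiment 1 was -0.34. The labels name no pairing of rats by replicate number, and rats were treated as unpaired. Deviations of same-numbered rats correlated from -0.13 to 0.14 in experiment 1 and from -0.76 to 0.84 in experiment 2. The 0.84 was that of replicate 1, whose rats stood apart in both groups, so this check cannot decide on pairing in experiment 2. With a replicate block, 3 and 0 members had a P under 0.05, and genes with such a P went from 483 to 476 and from 115 to 414. The median SE of the members, 0.084 in experiment 1 and 0.159 in experiment 2 on the log2 scale, limits what could be detected.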
